A study of Mus musculus with 24 samples.

Results

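The genes of 10 enzymes that act on foreign and reactive compounds were followed across 24 libraries, out of 35855 genes in all. They are Cyp2f2, Cyp2a5, Cyp2b10, Fmo2, Cbr2, Aldh1a1, Aldh3a1, Gsto1, Selenbp1 and Ces1d, taken from a fixed list, with the estimated counts and TPM of their transcripts summed per gene. All 10 passed the filter on low counts. They were selected on their levels in these same libraries (estimated counts and TPM), so levels and differences are given as a description, without p-values. The question was which of them stayed high in basal cells of the mouse trachea.

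The samples were airway epithelial cells of naive wild-type female C57BL/6 mice, sorted from the trachea in pools of 1000 cells and sequenced as bulk RNA. Their age was not given in the sources used here. The labels put 8 libraries each into BCAM HI (called BCAM high here), BCAM LO (BCAM low) and differentiated epithelial cells, the first pair being basal cell subsets. BCAM is a laminin-binding surface protein of basal cells. In each group, libraries 1 to 5 were batch 1 and libraries 6 to 8 were batch 2. What the batch stands for, and whether each library came from its own mouse, was not given in the sources used here.

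Xenobiotic metabolism runs in steps. Cytochrome P450 enzymes and flavin monooxygenases add oxygen to a compound, which can detoxify it or make it reactive. Dehydrogenases, reductases and esterases convert the products, and transferases couple them to glutathione, glucuronic acid or sulfate. In the mouse airway this chemistry is best known from club cells, secretory cells that make the secretoglobin Scgb1a1 and whose P450 enzyme Cyp2f2 turns naphthalene into a toxic epoxide. Basal cells, marked by Krt5 and Trp63, lie beneath them and are the stem cells of the tracheal epithelium.

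Levels are given as CPM, counts scaled to a common library total by the trimmed mean of M-values, or, where genes are compared with each other, as TPM, which also allow for transcript length. Summed basal markers separated both basal groups from differentiated cells, and summed secretory markers did so in batch 1. In batch 2 the secretory sums of both basal groups lay within the differentiated range of 15418 to 106489 CPM. They were 16908 to 22905 CPM in BCAM high and 60395 to 73893 in BCAM low. All 15 basal markers were higher and 14 of 15 secretory markers lower in BCAM high than in differentiated cells (edgeR quasi-likelihood test, adjusted p under 0.05). Krt5 was at 1262 to 2135 CPM in BCAM high, 700.9 to 1122 for BCAM low and 0 to 2.78 in differentiated libraries. Bcam itself did not separate them: it was at 324 to 739 CPM in BCAM high and 224 to 457 for BCAM low, overlapping, and at 109 to 252 in differentiated cells of batch 1 but 458 to 907 in those of batch 2, each above every BCAM low library of that batch. The scaling matters for the directions given here: scaled totals were 1.13 to 1.22 times the raw totals in BCAM high but 0.708 to 0.802 times in the differentiated libraries of batch 1. On the TPM scale the median of all tested genes was shifted upward in BCAM high against differentiated cells by 0.75 (log2). It was shifted by 0.48 in BCAM low, and by 0.26 in BCAM high against BCAM low. TPM add up to a fixed total, so dominant entries lower the values of all other genes. Of a library's TPM, 8 predicted genes took 5.77% to 27.1% in BCAM high and 8.04% to 42.1% in BCAM low. In differentiated libraries they took 2.64% to 61.8%. Their part in the TPM comparisons was not tested.

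The 3 differentiated libraries of batch 2 stood apart. A list of 15 secretory markers summed to 15418 to 106489 CPM there, against 277214 to 402020 in batch 1, and 9 thyroid and parathyroid markers summed to 49434 to 116841 CPM, against 15427 to 31939 in batch 1 and at most 1286 in any basal library. Every one of the 10 genes was lower in all 3 of them than in all 5 differentiated libraries of batch 1, by 3.33-fold (Ces1d) to 10.9-fold (Aldh3a1). Over all genes tested, 10.8% were lower in this way. Of all TPM, the 8 predicted genes took 61.8%, 44.8% and 9.33% in differentiated 6, 7 and 8, against 2.64% to 14.4% in batch 1. In such pools, fewer cells of a type and less RNA per cell cannot be told apart, and the part that the thyroid signal had in these levels was not tested. The 8 differentiated libraries are therefore described by batch, and batch 1 gives the first account. Those of batch 1 carried another signal: a list of 10 immune markers summed to 18805 to 25262 CPM there. The sums were 1360 to 14509 CPM in differentiated libraries of batch 2 and at most 2038 in any basal library. The part of this signal in the levels was not tested.

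In batch 1 the 10 genes spread over a wide range in basal cells. Cyp2f2, Cbr2, Aldh3a1, Ces1d and Fmo2 had BCAM high means of 60.7% to 128% of the differentiated mean on the CPM scale. Gsto1 and Selenbp1 had 34.4% and 32.4%, and Aldh1a1, Cyp2b10 and Cyp2a5 had 14.0%, 13.3% and 1.30%. Scgb1a1, the club cell secretoglobin, had 0.210%, and the 15 secretory markers lay between 0.0925% (Tff2) and 31.8% (Lypd2). The 10 enzyme genes thus had no common level relative to differentiated cells: 5 were at 60.7% of it or more, and Cyp2a5, Aldh1a1 and Cyp2b10 lay within the range of the secretory markers.

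**Figure D1:**
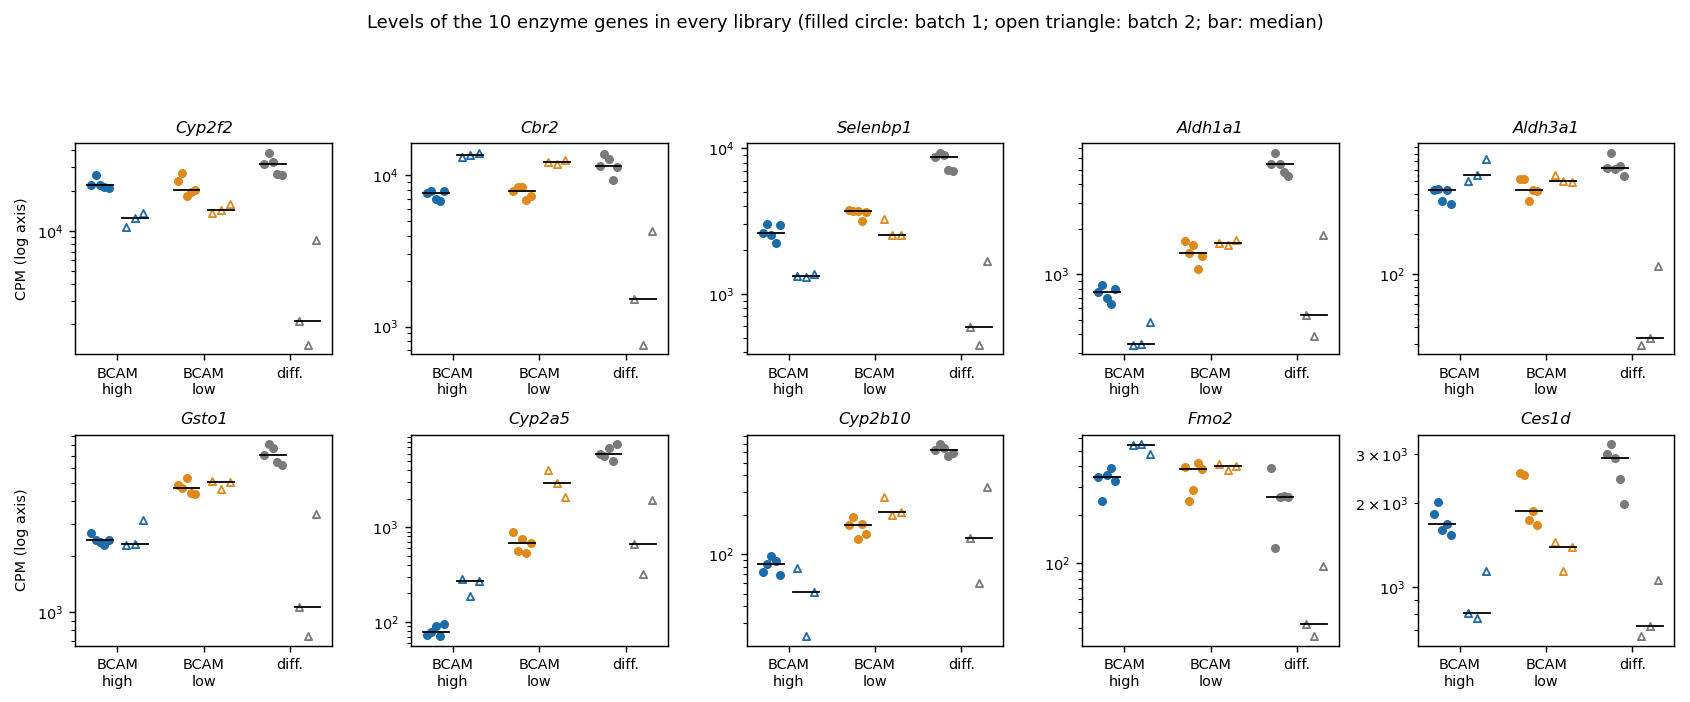
CPM of each of the 10 genes on a log axis for 8 BCAM high, 8 BCAM low and 8 differentiated (diff.) libraries, with filled circles for batch 1, open triangles for batch 2 and a bar at the median of each batch. Cyp2f2 lay between 18160 and 38258 CPM in all 15 libraries of batch 1, whereas Cyp2a5 ran from 70.8 CPM in BCAM high to 7529 CPM in differentiated cells. All 10 genes were lower in the 3 differentiated libraries of batch 2 than in the 5 of batch 1.

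Cyp2f2 (ENSMUSG00000052974, chr7:27119909-27133660, plus strand, GRCm38) was among the most abundant transcripts of every group. By mean TPM in batch 1 it ranked 4 of all genes in BCAM high at 15822 TPM, 9 in BCAM low at 13328 and 8 in differentiated cells at 11907; the ranks in batch 2 were 9, 13 and 34. In batch 1 the BCAM high libraries had 22174, 26401, 22093, 21126 and 20841 CPM, the BCAM low libraries 23518, 27004, 18160, 19616 and 20370, and the differentiated libraries 31421, 38258, 33007, 26544 and 25986. The ranges of both basal groups overlapped the differentiated range at its lower end. The differentiated mean was 1.38 times that of BCAM high (log2 difference -0.46, SE 0.12, for BCAM high minus differentiated) on the CPM scale, but on the TPM scale BCAM high was at 133% of it, so the direction depends on the scale. BCAM low was at 70.0% on the CPM scale and 112% on the TPM scale. Between the basal groups the log2 difference was 0.06 (SE 0.12).

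A ratio of genes within a library does not depend on that scaling. For 1 count of Scgb1a1 there were 185 counts of Cyp2f2 in the median BCAM high library (range 26.9 to 419), 14.7 in BCAM low (1.58 to 83.2) and 0.404 in differentiated cells (0.281 to 0.881). Both basal groups lay above the differentiated libraries in each batch, while the ranges of BCAM high and BCAM low overlapped in batch 1. Across the 24 libraries, log2 CPM of Cyp2f2 had a Pearson r of 0.12 with that of Scgb1a1, whereas Cyp2a5, Cyp2b10 and Aldh1a1 had r of 0.92, 0.89 and 0.84; the points share group, batch and depth, so these are descriptions.

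Cyp2a5 (chr7:26835305-26843548, plus strand), which oxidizes coumarin and nicotine, differed from Cyp2f2, which lies 276 kb away. In batch 1 the BCAM high libraries had 71.9, 78.6, 90.3, 70.8 and 94.8 CPM, the BCAM low libraries 887, 558.5, 751, 536 and 684, and the differentiated libraries 5999, 5716, 6893, 5018 and 7529. None of the 3 ranges touched. The differentiated mean was 76.7 times that of BCAM high on the CPM scale and 47.7 times on the TPM scale. The BCAM low mean was 11.0% of the differentiated mean, and BCAM high was lower than BCAM low by a log2 difference of -3.07 (SE 0.14). In batch 2 the BCAM high libraries (188 to 286 CPM) were again below the BCAM low libraries (2077 to 3997 CPM), by -3.59 (SE 0.71).

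For 1 count of Cyp2a5, batch 1 had medians of 298 counts of Cyp2f2 in BCAM high, 29.8 for BCAM low and 5.24 in differentiated cells. Batch 2 had 49.7, 4.88 and 4.38, with the BCAM low range (3.38 to 7.62) overlapping the differentiated range (3.20 to 4.39). Secretory markers moved beside this: their sum in BCAM low was 16008 to 39185 CPM in batch 1 and 60395 to 73893 in batch 2, and Scgb1a1 in BCAM low averaged 939 CPM in batch 1 and 6565 in batch 2. Their part in the Cyp2a5 level was not tested.

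Cyp2b10 (chr7:25897620-25926624, plus strand), a phenobarbital-inducible P450 in the liver, had the same order of groups in batch 1. It was there at 69.6 to 96.2 CPM in BCAM high, 131 to 192 for BCAM low and 559 to 691 in differentiated cells, with no overlap. BCAM high had 13.3% of the differentiated mean on the CPM scale and 22.4% on the TPM scale, and BCAM low 25.8% and 42.4%. Its ranks by mean TPM were 2246, 1054 and 383 in BCAM high, BCAM low and differentiated cells of batch 1, and 3191, 718 and 1050 in batch 2.

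The 3 P450 genes are part of one cluster of 11 Cyp2 genes among 16 protein-coding genes, which spans 1236 kb from Cyp2b10 to Cyp2f2. The other 8 Cyp2 genes of the cluster did not pass the filter on low counts. The most abundant of them, Cyp2a4, a near-identical copy of Cyp2a5, averaged 4.71 CPM in differentiated cells and 1.37 in BCAM high, so that few estimated counts were assigned to it. Pseudoalignment can divide reads between such copies, which leaves the exact split of Cyp2a5 and Cyp2a4 uncertain.

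The stretches of 250 bases before the RefSeq start of these 3 P450 genes are shown because the genes share a cluster but not a pattern over the groups. All are on the plus strand of GRCm38.p6: chr7:27119705-27119954 for Cyp2f2, chr7:26835089-26835338 for Cyp2a5 and chr7:25897408-25897657 for Cyp2b10. Capitals mark matches, on either strand, to the core motifs GCGTG (the aryl hydrocarbon receptor element), TTNNGCAA (a C/EBP form) and CAAGTG (an NKX2-1 form). The GENCODE gene starts printed above lie inside these stretches, so the end of each stretch is within the annotated gene. The last capitals of the Cyp2b10 stretch lie in that end.
Cyp2f2: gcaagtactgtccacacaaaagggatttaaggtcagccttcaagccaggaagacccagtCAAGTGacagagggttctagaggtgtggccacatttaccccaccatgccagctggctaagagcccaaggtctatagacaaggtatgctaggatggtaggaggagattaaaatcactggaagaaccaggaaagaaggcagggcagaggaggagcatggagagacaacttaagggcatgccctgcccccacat
Cyp2a5: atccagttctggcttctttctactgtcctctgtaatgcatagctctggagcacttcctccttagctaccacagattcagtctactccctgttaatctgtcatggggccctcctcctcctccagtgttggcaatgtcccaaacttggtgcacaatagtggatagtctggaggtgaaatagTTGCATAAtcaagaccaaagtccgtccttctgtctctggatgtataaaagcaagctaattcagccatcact
Cyp2b10: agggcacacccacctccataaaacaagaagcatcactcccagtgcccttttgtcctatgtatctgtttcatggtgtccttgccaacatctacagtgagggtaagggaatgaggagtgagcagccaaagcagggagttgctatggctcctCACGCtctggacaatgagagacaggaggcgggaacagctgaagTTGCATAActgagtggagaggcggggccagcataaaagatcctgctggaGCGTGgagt

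Motifs were searched on both strands in RefSeq windows from 250 bases before to 50 after the start, and 8 of the 10 genes have such a window, Aldh3a1 and Ces1d having none in the table used. TTNNGCAA was in windows of 5 of these 8 genes (Cyp2a5, Cyp2b10, Aldh1a1, Selenbp1 and Fmo2) and in 10.8% of all 32851 windows. CAAGTG was in windows of 3 genes (Cyp2f2, Aldh1a1 and Selenbp1) against 13.6% of all windows, and GCGTG in windows of 2 (Cyp2b10 and Selenbp1) against 32.4%. The antioxidant element TGACNNNGC was in none of the 8 and in 12.4% of all windows. Some genes have more than 1 window, and a match is only a description of the letters.

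**Figure D2:**
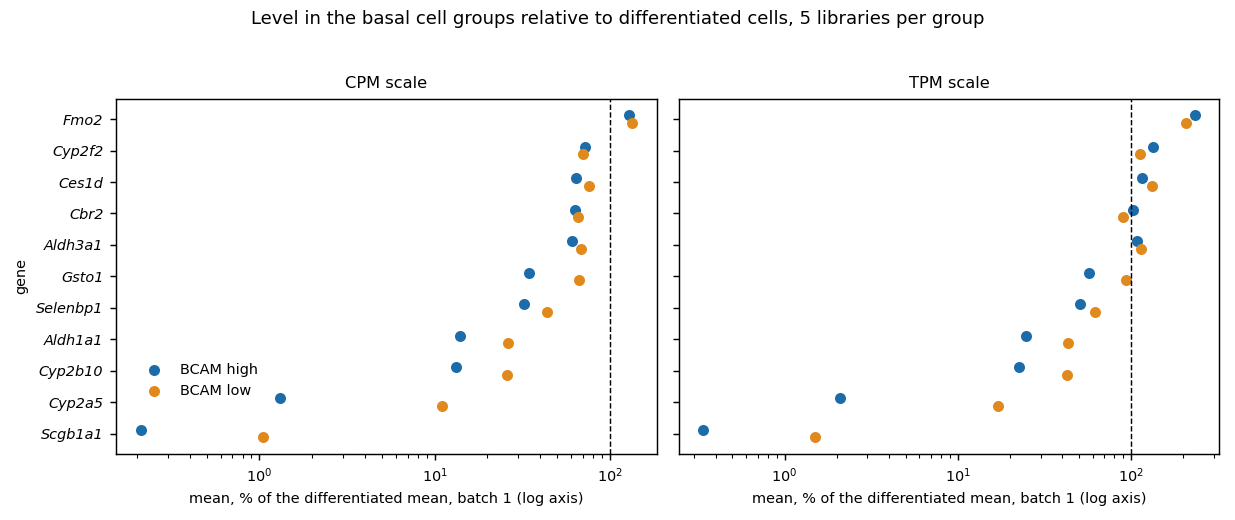
Batch 1 mean of BCAM high and BCAM low as a percent of the differentiated mean (log axis, 5 libraries per group) for the 10 genes and Scgb1a1, on the CPM scale and the TPM scale; the dashed line marks 100%. Fmo2, Cyp2f2, Ces1d, Cbr2 and Aldh3a1 lie at 60.7% or more on the CPM scale and Cyp2a5 lies at 1.30% (CPM) and 2.10% (TPM) in BCAM high.

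Fmo2 (chr1:162874317-162898726, minus strand) is the main flavin monooxygenase of the lung in many mammals. Of the members, it had the highest basal level relative to differentiated cells in batch 1. In batch 1 it was at 346, 242, 352, 391 and 327 CPM in BCAM high, at 400, 243, 286, 421 and 387 in BCAM low, and at 390, 125, 259, 262 and 258 in differentiated cells. The ranges overlapped, 1 differentiated library being at 390 CPM and 3 others at 258 to 262, above the lowest library of each basal group. BCAM high was at 128% and BCAM low at 134% of the differentiated mean on the CPM scale (log2 differences 0.36, SE 0.24, and 0.42, SE 0.24), and at 233% and 209% on the TPM scale. In batch 2 the differentiated libraries had 41.8, 35.4 and 96.3 CPM against 476 to 550 in BCAM high and 382 to 412 in BCAM low. Fmo2 was there at 903% and 691% of the differentiated mean, below Aldh3a1 at 1000% and 863%. Its level was modest: by mean TPM it ranked 850 in BCAM high and 1307 in differentiated cells of batch 1, and 623 and 3588 in batch 2.

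With estimated counts pooled over the 8 libraries of each group, the share of the 2 main Fmo2 transcripts also differed. Shares per library and per batch were not compared, so their spread is not given. The division of reads between transcripts is itself an estimate. The transcript of 4066 bases took 65.9% of the gene's estimated counts in BCAM high and 40.5% in differentiated cells, and the one of 3594 bases took 26.7% and 51.2%. For 8 of the other 9 genes 1 transcript led in every group with at least 64.5% of the estimated counts, and for Cbr2 the leading transcript held 31.6% to 50.7%.

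Relatives of Fmo2 had other patterns. Fmo1 was lower in BCAM high (log2 difference -1.49) and in BCAM low (-1.71) than in differentiated cells, and Fmo5 was higher in BCAM high than in differentiated cells (0.96) and than in BCAM low (0.63); each had an adjusted p under 0.05 in the edgeR quasi-likelihood test. The Fmo1 calls were lost on the TPM scale (-0.71 in BCAM high), and with batch 2 alone Fmo1 was at 0.86 in BCAM high and 0.19 in BCAM low; neither Fmo5 call was made with batch 2 alone.

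Cbr2 (chr11:120729489-120732114, minus strand) encodes a lung carbonyl reductase that reduces ketones, aldehydes and quinones. By mean TPM in batch 1 it ranked 5 in BCAM high at 15803 TPM, 6 in BCAM low at 13921 and 6 in differentiated cells at 15464. The ranks in batch 2 were 2, 6 and 28. The Cbr2 transcript of 1110 bases took 31.6% to 50.7% of the estimated counts, and transcripts of 461 to 637 bases took the rest. The TPM and ranks of Cbr2 depend on this division. In batch 1 Cbr2 was at 6760 to 7899 CPM in BCAM high, 6830 to 8350 for BCAM low and 9310 to 13932 in differentiated cells. Both basal groups thus lay below all differentiated libraries. On the TPM scale the ranges overlapped, with BCAM high at 102% and BCAM low at 90.0% of the differentiated mean. In batch 2 the basal levels were higher, at 13204 to 14083 CPM in BCAM high and 11828 to 12624 in BCAM low. The related reductases were far lower: Dcxr, the next in abundance, was at 672 TPM in BCAM high and Cbr1 at 63.5 TPM.

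Aldh3a1 (chr11:61207537-61218421, plus strand), which oxidizes aldehydes from lipid peroxidation, was in batch 1 at 333 to 435 CPM in BCAM high, 350 to 520 for BCAM low and 546 to 809 in differentiated cells. Basal libraries were lower than all differentiated libraries on the CPM scale (60.7% and 68.6% of the differentiated mean), but overlapped them on the TPM scale (108% and 114%). Aldh1a1 (chr19:20492715-20643465, plus strand), which makes retinoic acid from retinal, had a wider spread between groups: batch 1 had 638 to 850 CPM in BCAM high, 1082 to 1684 for BCAM low and 4542 to 6454 in differentiated cells, with no overlap. BCAM high was at 14.0% of the differentiated mean on the CPM scale and 24.7% on the TPM scale. Here too BCAM high was below BCAM low in both batches, by log2 differences of -0.91 (SE 0.12) and -2.08 (SE 0.57).

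Gsto1 (chr19:47854970-47864790, plus strand), an omega-class glutathione transferase that acts in thiol transfer and arsenic reduction, ranked 27, 18 and 16 of all genes by mean TPM in BCAM high, BCAM low and differentiated cells of batch 1, and 21, 21 and 35 in batch 2. Batch 1 had 2296 to 2674 CPM in BCAM high, 4385 to 5342 for BCAM low and 6250 to 8116 in differentiated cells, and no ranges met. BCAM high was at 34.4% and BCAM low at 66.5% of the differentiated mean on the CPM scale, and at 57.2% and 92.9% on the TPM scale. The BCAM high libraries of batch 2 were at 2301, 2340 and 3165 CPM and the BCAM low libraries at 4615 to 5107. Gsto1 was the member whose basal levels differed least between batches, with log2 differences of 0.08 (SE 0.29) in BCAM high and 0.06 (SE 0.29) in BCAM low.

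Selenbp1 (chr3:94933056-94944758, plus strand) encodes a selenium-binding protein that oxidizes methanethiol. In batch 1 it was at 2222 to 3002 CPM in BCAM high, 3193 to 3774 for BCAM low and 6988 to 9294 in differentiated cells. No ranges met on the CPM scale, where BCAM high was at 32.4% and BCAM low at 43.9% of the differentiated mean; the TPM values were 50.8% and 61.5%. Its close copy Selenbp2 averaged 4.05 to 8.83 CPM over the 3 groups.

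Ces1d (chr8:93166068-93197838, minus strand), a carboxylesterase that also cleaves triglycerides, was at 1537 to 2008 CPM in BCAM high, 1665 to 2568 for BCAM low and 1984 to 3246 in differentiated cells of batch 1, with overlap between all groups. BCAM high was at 63.8% and BCAM low at 76.3% of the differentiated mean on the CPM scale, and at 116% and 132% on the TPM scale, so its direction depends on the scale. Ces1d is also a gene of fat cells. The adipocyte list summed to at most 20.4 CPM in any library, and Adipoq, its defining gene, was at 0 in all 24. Of its 7 genes 2 were tested, and both were called higher in BCAM high and 1 in BCAM low than in differentiated cells; the part of such cells in the Ces1d level was not tested. Other Ces1 genes were lower: Ces1f averaged 4.10 CPM in BCAM high, 31.0 for BCAM low and 318 in differentiated cells, and Ces1b and Ces1e stayed between 12.0 and 110 CPM.

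Counted over the 10 genes in batch 1 on the CPM scale, 7 were lower in every BCAM high than in every differentiated library (14.3% of all genes tested), and 7 were lower in every BCAM low library (12.2%). In BCAM high against BCAM low, 5 were lower without overlap (4.18%). On the TPM scale 5 were lower (4.46%) and 2 higher (33.7%) in every BCAM high than in every differentiated library, and 4 were lower (3.32%) and 0 higher (22.3%) in BCAM low. Cyp2a5, Cyp2b10, Aldh1a1 and Selenbp1 were lower in BCAM high and BCAM low than in differentiated cells without overlap on both scales. In batch 2, where differentiated levels were low, 4 of the 10 were higher (20.9%) and 1 lower (21.6%) in every BCAM high library, and 8 were higher in every BCAM low library (16.9%). The choice of genes fixes what these counts can be, and nothing is read from them.

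In the fit over all 24 libraries with batch as a term, the log2 difference of Cyp2f2 between BCAM high and differentiated cells was 0.15 (SE 0.36), and with the 3 differentiated libraries of batch 2 left out it was -0.51 (SE 0.11). For Cyp2a5 it was -5.34 (SE 0.71) and -6.35 (SE 0.19). The Cyp2f2 difference thus changed its sign with those libraries, and the Cyp2a5 difference did not.

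Between the basal groups, the fit without those 3 libraries put Cyp2a5 9.61-fold, Cyp2b10 2.62-fold and Aldh1a1 2.53-fold lower in BCAM high than in BCAM low. Cyp2f2, Cbr2, Aldh3a1 and Fmo2 had log2 differences between -0.06 and 0.11 (SE 0.08 to 0.17) in that fit. On the TPM scale BCAM high was at 119%, 114%, 94.9% and 112% of BCAM low for these 4 genes in batch 1, with overlap, and at 116%, 154%, 149% and 153% in batch 2. In batch 2 Aldh3a1 and Fmo2 were higher in every BCAM high than in every BCAM low library on that scale (21.5% of all genes), and Cbr2 and Fmo2 on the CPM scale (11.1%).

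**Figure D3:**
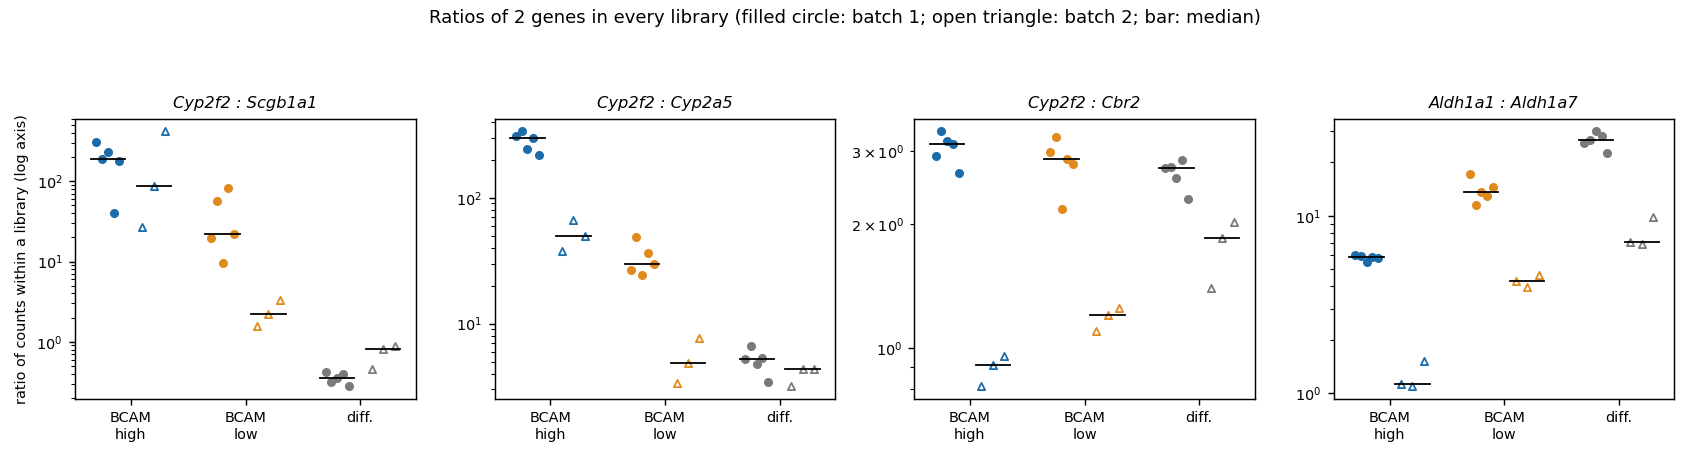
Ratio of 2 genes within each library (log axis) for Cyp2f2 over Scgb1a1, Cyp2f2 over Cyp2a5, Cyp2f2 over Cbr2 and Aldh1a1 over Aldh1a7, with filled circles for batch 1, open triangles for batch 2 and a bar at each batch's median. The medians of the first 2 ratios were highest in BCAM high in each batch, and the other 2 separated the batches in every group.

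The batches also differed within the basal groups, and not in one direction. In BCAM high, every library of batch 2 was below every library of batch 1 for Cyp2f2 (1.84-fold), Selenbp1 (2.01-fold), Aldh1a1 (1.94-fold) and Ces1d (1.91-fold), a pattern that 9.04% of all genes tested had. Every library of batch 2 was above for Cbr2 (1.84-fold), Aldh3a1 (1.51-fold), Cyp2a5 (3.06-fold) and Fmo2 (1.57-fold), which 9.82% of all genes had. In BCAM low, Cyp2f2 (1.50-fold) and Ces1d (1.56-fold) were lower (8.41% of all genes) and Cbr2 (1.58-fold), Cyp2a5 (4.39-fold) and Cyp2b10 (1.42-fold) higher (9.89%) in batch 2 without overlap.

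The opposite moves of Cyp2f2 and Cbr2 in the basal groups show in their ratio, which the scaling does not touch. Cyp2f2 over Cbr2 was 2.65 to 3.34 in BCAM high of batch 1 and 0.812 to 0.961 in batch 2, and 2.17 to 3.24 against 1.10 to 1.25 in BCAM low. In differentiated cells it was 2.29 to 2.85 and 1.40 to 2.01. The ratio of Aldh1a1 to Aldh1a7, close copies that lie on chromosome 19, was also lower in batch 2 in every group. Aldh1a1 was 1.94-fold lower in batch 2 in BCAM high, 1.15-fold higher in BCAM low, with overlap, and 5.79-fold lower in differentiated cells. As with the other close copies, estimated counts may be divided between Aldh1a1 and Aldh1a7, and the part of this in their ratio was not tested. Their ratio was 5.53 to 6.02 in BCAM high of batch 1 and 1.10 to 1.52 in batch 2. It was 11.6 to 17.2 against 3.98 to 4.63 in BCAM low, and 22.7 to 29.9 against 6.89 to 9.79 in differentiated cells. Aldh1a7 itself was 2.40-fold higher in batch 2 in BCAM high and 3.73-fold higher in BCAM low, but in differentiated cells it was 1.89-fold lower in batch 2, with overlap (log2 difference -0.91, SE 0.24). What differed between the batches was not tested.

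Among the genes most like Cyp2f2 over the 24 libraries, by Pearson r of log2 CPM among genes other than the 10, were Cd14 (0.990), Dpp7 (0.967), Prdx6 (0.961) and Slc15a2 (0.958). Cd14 encodes a lipopolysaccharide co-receptor, Prdx6 a peroxiredoxin and Slc15a2 a peptide transporter. Cd14 averaged 203 CPM in BCAM high, 214 for BCAM low and 206 in differentiated cells. Most like Fmo2 were Epas1 (0.960), Atp10d (0.957), Cotl1 (0.931), Krt15 (0.930) and Adh7 (0.929), among which Krt15 is a basal keratin and Adh7 an alcohol dehydrogenase of epithelia. These likenesses share the group, batch and depth of the libraries.

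Other genes of the pathway were taken from a list of 210 genes, of which 209 were in the tables and 116 were tested. In BCAM high against differentiated cells 27 rose (19.4% of all genes tested were called higher) and 44 fell (22%), by the edgeR quasi-likelihood test at an adjusted p under 0.05; the median log2 difference of the 116 was -0.31, against 0.02 over all genes. In BCAM low 25 rose (16.3%) and 33 fell (17.1%), with a median of -0.21. The split depends on the scale: limma on log2(TPM + 0.1) called 55 higher (55.8% of all genes) and 13 lower (7.2%) in BCAM high, and 38 higher (35%) and 13 lower (5.11%) in BCAM low. The edgeR and TPM counts given below for groups of enzymes are to be read against these shares of all genes, each on its own scale. It also depends on the batch: with batch 1 alone 22 were higher (15.7% of all genes) and 55 lower (18%) in BCAM high, and with batch 2 alone 30 (12.9%) and 19 (16.7%). Of the 27 higher, 27 were also called higher on the TPM scale, and of the 44 lower, 13 were also called lower there.

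Of 13 tested esterases and epoxide hydrolases, 5 rose and 7 fell in BCAM high against differentiated cells, or 6 and 4 by limma on the TPM scale. Ces2e, an intestinal-type carboxylesterase, was at 28.2 to 52.1 CPM in BCAM high and 9.26 to 55.8 in BCAM low, and at 0 in 7 of the 8 differentiated libraries, the other having 2.06 CPM (adjusted p = 2.91e-12 in edgeR for BCAM high). Ces2f rose by a log2 difference of 3.44 (SE 0.26) in BCAM high, and Ces2g by 2.34 (SE 0.28) in BCAM low. Ces1f fell by 5.94 (SE 0.69) and Ephx2, the soluble epoxide hydrolase, by 3.60 (SE 0.56) in BCAM high. In differentiated cells of batch 1 and batch 2, Ces1f averaged 492 and 26.6 CPM and Ephx2 10.6 and 30.2. With batch 1 alone the log2 difference of Ephx2 was -2.51. Members of the Ces1 and of the Ces2 family are close copies, so their estimated counts may be divided among them.

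Of 21 tested glutathione transferases, 2 rose and 13 fell in BCAM high, and 3 rose and 9 fell in BCAM low; on the TPM scale limma called 6 higher and 5 lower in each. Mgst1, a microsomal transferase, was at 42.0 to 125 CPM in BCAM high, 130 to 296 for BCAM low and 279 to 1372 in differentiated cells, a fall of 3.44 (log2, SE 0.34). The theta-class Gstt1 and Gstt2 fell in BCAM low by 3.09 (SE 0.36) and 3.99 (SE 0.43). Differentiated means of batch 1 and batch 2 were 51.9 and 86.9 CPM for Gstt1 and 24.8 and 78.9 for Gstt2. For Mgst1 they were 1240 and 313. With batch 1 alone the log2 differences in BCAM low were -2.38 for Gstt1 and -3.13 for Gstt2. The part of the thyroid signal in these levels was not tested. The 2 that rose in BCAM high were Gstm1 and Gstm2, named after their values were seen, and the Gstm genes are close copies.

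Of 12 tested P450s and electron donors other than the 3 members, 3 rose and 4 fell in BCAM high (4 and 0 on the TPM scale). Cyp3a13 rose by 3.48 (SE 0.25) in BCAM high and 2.74 (SE 0.25) in BCAM low, from 0.411 to 16.1 CPM in differentiated libraries to 39.8 to 129 CPM in BCAM high. Cyp2d22 fell by 3.17 (SE 0.49) in BCAM low. Of 18 transferases for glucuronic acid, sulfate, acetyl and methyl groups, 6 rose and 6 fell in BCAM high (10 and 3 on the TPM scale). Ugt2b34 rose by 3.38 (SE 0.41), to 204 to 293 CPM, and the methyltransferase Inmt fell by 6.68 (SE 1.13), from a differentiated group in which it ran from 0 to 741 CPM.

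Of 17 aldehyde and alcohol dehydrogenases, 1 rose and 6 fell in BCAM high (9 and 1 on the TPM scale), and Aldh3b1 fell by 3.45 (SE 0.35). Of 16 carbonyl, aldo-keto and quinone reductases, 2 rose and 5 fell (7 and 0 on the TPM scale), and Akr1c19 rose by 3.03 (SE 0.57). Of 11 regulators, 6 rose and 1 fell in BCAM high (11 and 0 on the TPM scale, where 55.8% of all genes were called higher); named after their values were seen, they were Tiparp, Ppara, Nr2f2, Rxra, Mafk and Nfe2l2 against Keap1. Tiparp, a target and repressor of the aryl hydrocarbon receptor, rose by 1.81 (log2). Keap1, the inhibitor of the antioxidant regulator Nfe2l2, fell by 0.31 on the CPM scale but was at 0.42 on the TPM scale, and neither Keap1 nor Nfe2l2 was called in either batch alone. The calls for Nfe2l2 and Keap1 also depended on single libraries: the first was lost without BCAM high 8, and the second without BCAM high 4, 5 or 8 or differentiated 3, 6 or 8. For BCAM high against differentiated cells, Ces2e, Cyp3a13, Ces2f, Ugt2b34, Akr1c19, Inmt, Ces1f, Ephx2, Aldh3b1 and Mgst1 kept direction and call under every alternative in which they were tested.

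Between the basal subsets, 4 pathway genes rose (2.43%) and 8 fell (4.59%) in BCAM high against BCAM low, while limma on log2(TPM + 0.1) called 9 higher (4.85%) and 6 lower (1.55%). The 8 that fell were all called lower in batch 1 alone too (3.64% of all genes), and 5 of them in batch 2 alone (3.56%). Ces1f fell by 3.24 (SE 0.67), Aldh3b2 by 2.51 (SE 0.32), Ces1h by 2.14 (SE 0.37), Akr1c18, which inactivates progesterone, by 2.14 (SE 0.52) and Aldh3b1 by 1.71 (SE 0.35). Cyp3a13 rose by 0.74 (SE 0.21), Fmo5 by 0.63 (SE 0.15) and Aldh6a1 by 0.60 (SE 0.11); none of these 3 was called in batch 2 alone. The call for Akr1c18 was lost by limma on log2(TPM + 0.1), without the batch term and with batch 2 alone. The call for Cyp3a13 was lost without any one of BCAM high 1, 2, 7 and 8 and BCAM low 3, 5 and 6 (adjusted p up to 0.0727 in edgeR) and by limma on log2(TPM + 0.1).

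**Figure D4:**
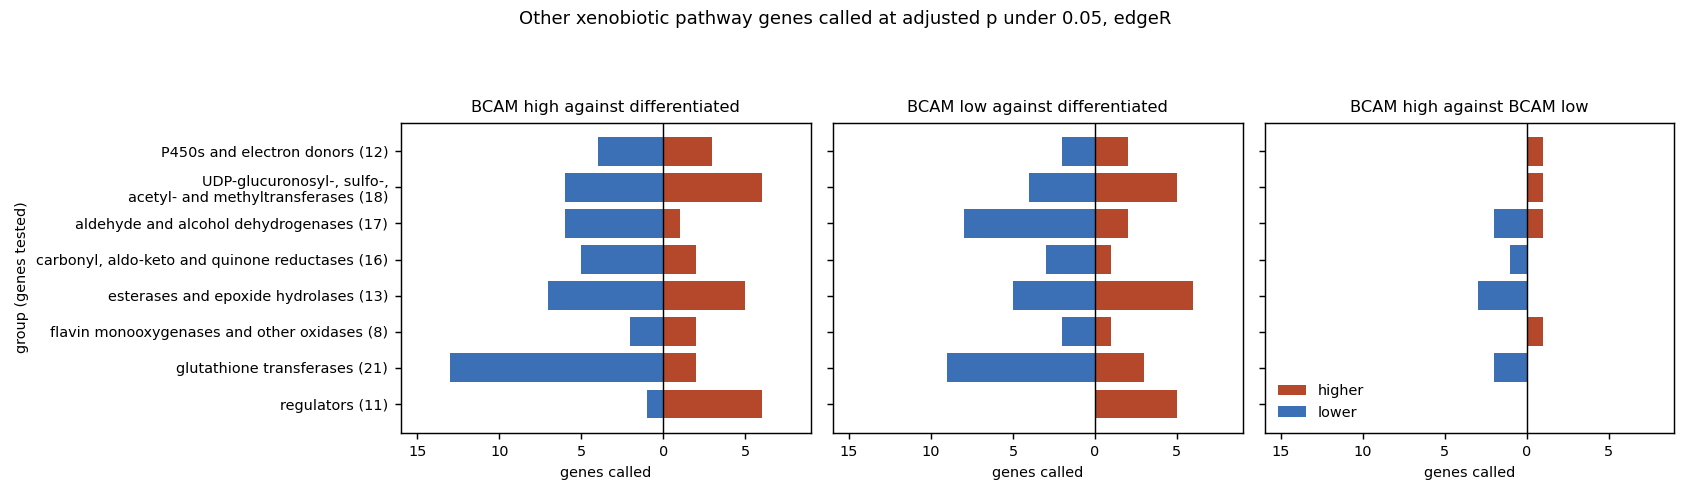
Number of pathway genes other than the 10 called higher (right) and lower (left) at adjusted p under 0.05 in edgeR, by group of enzymes with the number tested, in the 3 comparisons. Glutathione transferases had 13 lower and 2 higher in BCAM high against differentiated cells, and regulators 6 higher and 1 lower, on the CPM scale. Of all genes, 22% were called lower and 19.4% higher on that scale. The TPM scale gave 6 higher and 5 lower for glutathione transferases, and 11 and 0 for regulators. On it, 55.8% of all genes were called higher and 7.2% lower.

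Between batches, with group as a term, 5 of the 116 pathway genes rose (11.8% of all genes were called higher in batch 2) and 34 fell (9.61%). The 5 were Aldh1a7 (log2 0.91, SE 0.30, although lower in batch 2 among differentiated cells), Arnt, the partner of the aryl hydrocarbon receptor (0.65, SE 0.13), its target Tiparp (0.56, SE 0.11), Cyb5b (0.48, SE 0.10) and Gstt3 (0.33, SE 0.11). The largest falls were those of Akr1c19 (4.34, SE 0.54), Inmt (3.71, SE 1.16), Akr1c14 (2.55, SE 0.34), Akr1c18 (2.28, SE 0.48) and Cyp4b1 (1.99, SE 0.32). Akr1c14 fell within BCAM high from 57.3 to 76.2 CPM to 2.83 to 5.96 CPM, and Cyp4b1, a lung P450, from 1129 to 1467 CPM to 303 to 341 CPM. The call for Aldh1a7 was lost in 14 of 24 fits that left out 1 library, each of them a basal one, with adjusted p up to 0.0649 in edgeR. The calls for Inmt were lost without differentiated 1, 7 or 8, and for Gstt3 without BCAM high 7, BCAM low 7 or differentiated 6 or 7. The calls for Arnt, Gstt3 and Inmt were lost on the TPM scale, and those for Arnt and Gstt3 also with transcript length offsets. Those for Gstt3 and Inmt were lost without the differentiated libraries of batch 2. That fit called 12 of 127 pathway genes higher and 28 lower in batch 2, beside 1261 and 984 of all 12881 genes tested.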

How the data were processed

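Bulk RNA of 24 pools of sorted cells was sequenced by the SmartSeq2 protocol in read pairs of 38 bases, per the labels' protocols. Per the submitters' processing notes, kallisto and Picard were used with GRCm39; roles and options were not given in the sources used here. Per the file headers, each deposited table gives the estimated count and the TPM of every transcript; the estimated counts carried no normalization, and the deposited TPM values are scaled by transcript length and library. Of 117497 transcripts, 116374 were matched without version to GENCODE M21, whose GRCm38 coordinates are printed, and summed over 35855 genes; the 1123 others took 0.317% to 0.594% of the estimated counts. Totals were 1824619 to 4440072 estimated counts per library.

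Rounded gene sums were fitted with edgeR 4.0.16 (R 4.3.3; TMM factors, default filter on low counts, robust quasi-likelihood test, group means and batch over all 24 libraries), and p-values were adjusted by Benjamini-Hochberg over 12211 genes, with calls at 0.05. The fit was tested on simulated data. Alternatives used DESeq2 1.42.0 and limma 3.58.1. As nothing says that libraries came from separate mice, p-values measure the spread between these samples, which may be technical.

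The 10 genes and the lists were chosen with earlier results of these data known, so no p-values or calls are given for the 10. Named pathway genes were, per comparison and direction, the 5 called genes with the largest log2 difference and a mean of at least 5 CPM; relatives needed 1 CPM; the 5 genes most like Cyp2f2, and most like the member with the highest basal percent, needed 10 CPM, with 0.5 added before log2. Promoter windows are RefSeq's. Protein sequences were not used here, and some genes that the naming rules chose are not reported here. The main fit did not pair libraries by replicate number, and whether the numbers stand for pairs was not settled (see the closing section).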

Additional observations from a re-analysis of the deposited data

Results flagged for a closer look

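Gsto1 in BCAM high library 8 was at 3165 CPM, far above the other 7 BCAM high libraries, which lay between 2296 and 2674 CPM. The gap exceeded Dixon's 95% critical value for 8 samples. It was the only such case among 30 gene and group combinations tested, and chance alone gives about 1 in 20. In that library Aldh3a1 was at 735 CPM and Ces1d at 1138 CPM, the highest Aldh3a1 value of BCAM high and the highest Ces1d value of the BCAM high libraries of batch 2.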

How the results depend on the processing

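The pathway counts of 71 (BCAM high against differentiated), 58 (BCAM low against differentiated) and 39 (batch 2 against batch 1) genes stayed within 1.5 times under every alternative tried. Leaving out 1 library at a time gave 66 to 79, 54 to 64, 32 to 42 and, for BCAM high against BCAM low (12), 10 to 17. That last count was 20 by limma on log2(TPM + 1), 21 with batch 1 alone, 6 with batch 2 alone and 25 without the differentiated libraries of batch 2, an alternative chosen after seeing the data; the batch fits use fewer samples, and the cause of the others was not tested. Its split was 4 higher and 8 lower, but 9 and 6 by limma on log2(TPM + 0.1). The 39 genes of the batch comparison were 5 higher and 34 lower. Without the differentiated libraries of batch 2 the split was 12 and 28.

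With batch 2 alone several log2 differences against differentiated cells changed sign from the main fit. In BCAM high these were Selenbp1 (0.55), Gsto1 (0.59) and Ces1d (0.15). In BCAM low they were Cyp2a5 (1.62), Selenbp1 (1.63), Aldh1a1 (0.83) and Cyp2b10 (0.40). Fmo1 changed sign in both (0.86 and 0.19). Between batch 1 alone and batch 2 alone, Cyp2f2 (-0.46 and 1.61), Cbr2 (-0.66 and 2.65) and Aldh3a1 (-0.72 and 3.32) also changed sign in BCAM high. In BCAM low, Cyp2f2 (-0.52 and 1.86), Cbr2 (-0.61 and 2.50), Aldh3a1 (-0.55 and 3.11), Gsto1 (-0.59 and 1.51) and Ces1d (-0.39 and 0.70) did so. Fmo2 was positive in each. On the TPM scale Keap1 was at 0.42 and 0.40, and Gsto1 in BCAM high was at 0.0742 and 0.0740 with pseudocounts of 0.1 and 1, below that scale's median shift of 0.75 over all genes. Deviations of same-numbered libraries from their group and batch means had low positive correlations. Of 8 pairs each, 3, 3 and 1 were over 0.1 (range 0.03 to 0.18). Differently numbered libraries were not compared, so these values cannot tell whether the numbers pair the libraries. With the replicate number as a block the counts were 70, 56 and 13. Low totals limit genes at a few CPM, such as the other Cyp2 genes of the cluster, where a difference was not detectable at this depth.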
